A study of Mus musculus with 24 samples.

Results

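Naive CD4 T cells that lack Raptor were compared after a day of stimulation with the same cells left unstimulated. The comparison holds 8 of the 24 arrays of a mouse series: 4 samples titled as stimulated for 24 h and 4 titled as not stimulated, all of the genotype CD4(cre)Raptor(fl/fl). Members were chosen by those labels alone and not by any measured value. In these mice a Cre recombinase driven by the Cd4 promoter acts on a floxed Raptor allele in cells that express or once expressed CD4. Spleen and peripheral lymph nodes supplied the lymphocytes, which were sorted as CD4+ CD62Lhi CD44lo CD25- cells, and stimulation was with plate-bound antibodies to CD3 and CD28. Beside these 8 samples the series holds 4 Raptor-deficient samples at 8 h and wild-type C57BL/6 samples at the same 3 times, which entered here only where stated. The labels give neither the strain background of the Raptor-deficient mice nor any age, and they do not tie samples to separate animals, so each p-value measures the spread between these samples, which may be technical.

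Raptor, the product of Rptor, is the subunit that defines the kinase complex mTORC1, which couples antigen, growth factor and nutrient signals to protein synthesis, lipid and nucleotide synthesis and cell growth. mTOR also forms a second complex, mTORC2, built on Rictor instead of Raptor. A naive T cell that receives signals through its antigen receptor and CD28 leaves quiescence, turns on cytokine and receptor genes within hours, builds ribosomes and expands its metabolism over about a day, and then enters S phase and divides.

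Values are the authors' deposited log2 intensities of arrays read from amplified RNA, so a difference of 1 is a change of 2-fold in measured signal. The threshold for calling a gene was an adjusted p under 0.05 (limma, Benjamini-Hochberg adjustment over 17097 genes). Levels under 5.22, the median of all values in the table, lie near background, and folds of genes that start there are those of the measured signal only. Array values are relative to the rest of each array, so a change in total RNA per cell would not be seen, and in bulk samples fewer cells of a type and less RNA per cell cannot be told apart.

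Both replicates numbered 1 stood apart. In unstimulated replicate 1, 377 genes differed 2-fold or more from the average of its group mates, against 21 to 87 in those, and 24 h replicate 1 carried signal of liver genes, with a mean of 6.07 over 21 liver markers against 4.10 to 4.13 in the other 24 h samples. Replicates correlated across genes with Pearson r of at least 0.978 in the unstimulated and 0.994 in the 24 h group. The first principal component held 75.1% of the variance and placed the unstimulated samples at -42.6 to -39.7 and the 24 h samples at 39.4 to 47.8. Rptor itself read 5.92, 7.37, 6.55 and 6.79 in the 4 unstimulated samples and 6.25, 6.60, 6.45 and 6.48 at 24 h (difference -0.21, SE 0.24, adjusted p = 0.566). The groups overlapped, and the position of the probes relative to the floxed exon is not given in the sources used here, so these values do not check the deletion.

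After 24 h of stimulation without Raptor, 5638 genes were called (33.0% of those tested). Of these, 3233 were higher (18.9%) and 2405 lower (14.1%), and 1215 of the higher and 480 of the lower genes differed by at least 2-fold. The median difference over all genes was -0.01. Without replicate 1 of both groups, 3153 genes were higher and 2419 lower. The count of genes whose 4 samples at 24 h all lay above the 4 unstimulated ones was 3199, and 2517 genes lay below in the same way. In broad terms the cells raised receptors, cytokines, ribosome assembly, mitochondrial and nucleotide synthesis genes and lowered genes of the naive state.

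The largest rise was that of Il2ra, the alpha chain of the interleukin 2 receptor and a classic activation marker. It read 4.0, 4.58, 4.95 and 3.88 in unstimulated and 10.90, 10.92, 10.90 and 10.88 in 24 h samples, a 93.5-fold increase in signal (log2 difference 6.55, SE 0.20, adjusted p = 2.02e-09). The 24 h values were nearly identical and far above every unstimulated one. Of the other receptor genes, Il2rb, the signalling beta chain of the same receptor, rose 23.8-fold and Tnfrsf9, the costimulatory receptor 4-1BB, 24.3-fold. In all, 21 of 24 measured activation surface receptor genes rose and 0 fell, 18 of them by at least 2-fold, with a median difference of 2.48. The list includes inhibitory receptors: Pdcd1, which encodes PD-1, rose from 4.82 to 5.33 in unstimulated samples to 7.73 to 8.16 at 24 h (7.36-fold), and Ctla4 from 5.5 to 6.02 to 8.42 to 8.66 (7.03-fold). Cd44, whose low level was a sorting criterion, rose 8.65-fold, with 5.39, 5.35, 5.77 and 5.41 in unstimulated and 8.56, 8.38, 8.83 and 8.60 in 24 h samples. Smaller rises were those of the early marker Cd69 (3.55-fold) and the costimulator Icos (2.09-fold). Cd28 was not called (adjusted p = 0.21), and Tfrc, the transferrin receptor that brings iron into growing cells, rose 7.71-fold.

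Among cytokines, chemokines and effector proteins, 17 of 29 measured genes rose and 0 fell, with a median difference of 1.28, and 11 of the 29 had both group means near background. Il2, the growth factor that T cells make on activation, read 4.90, 5.29, 4.94 and 4.75 before and 9.88, 10.07, 10.39 and 10.14 after stimulation (35.5-fold, SE 0.14 on the log2 scale, adjusted p = 2.02e-09). No sample of one group came near the other. Xcl1, a chemokine that attracts cross-presenting dendritic cells, read 5.31, 4.31, 5.49 and 4.54 before and 10.76, 11.05, 10.91 and 10.76 after (62.1-fold, adjusted p = 7.68e-09), and its 24 h values too lay close together. Tnfsf11, which encodes RANK ligand, rose 65.9-fold. Ccl3 and Ccl4, chemokines for inflammatory cells, rose 23.8-fold and 8.28-fold, Tnf rose 4.43-fold, and the protease gene Gzmb rose 7.39-fold with a wide range at 24 h (6.79 to 8.12). Ifng and Csf2 were called higher but ended at means of 4.72 and 5.39, at or close to background. The signature cytokine genes of polarised helper cells Il4, Il5, Il13, Il10, Il17a and Il21 were not called, with adjusted p of 0.37, 0.51, 0.52, 0.71, 0.57 and 0.99.

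**Figure D1:**
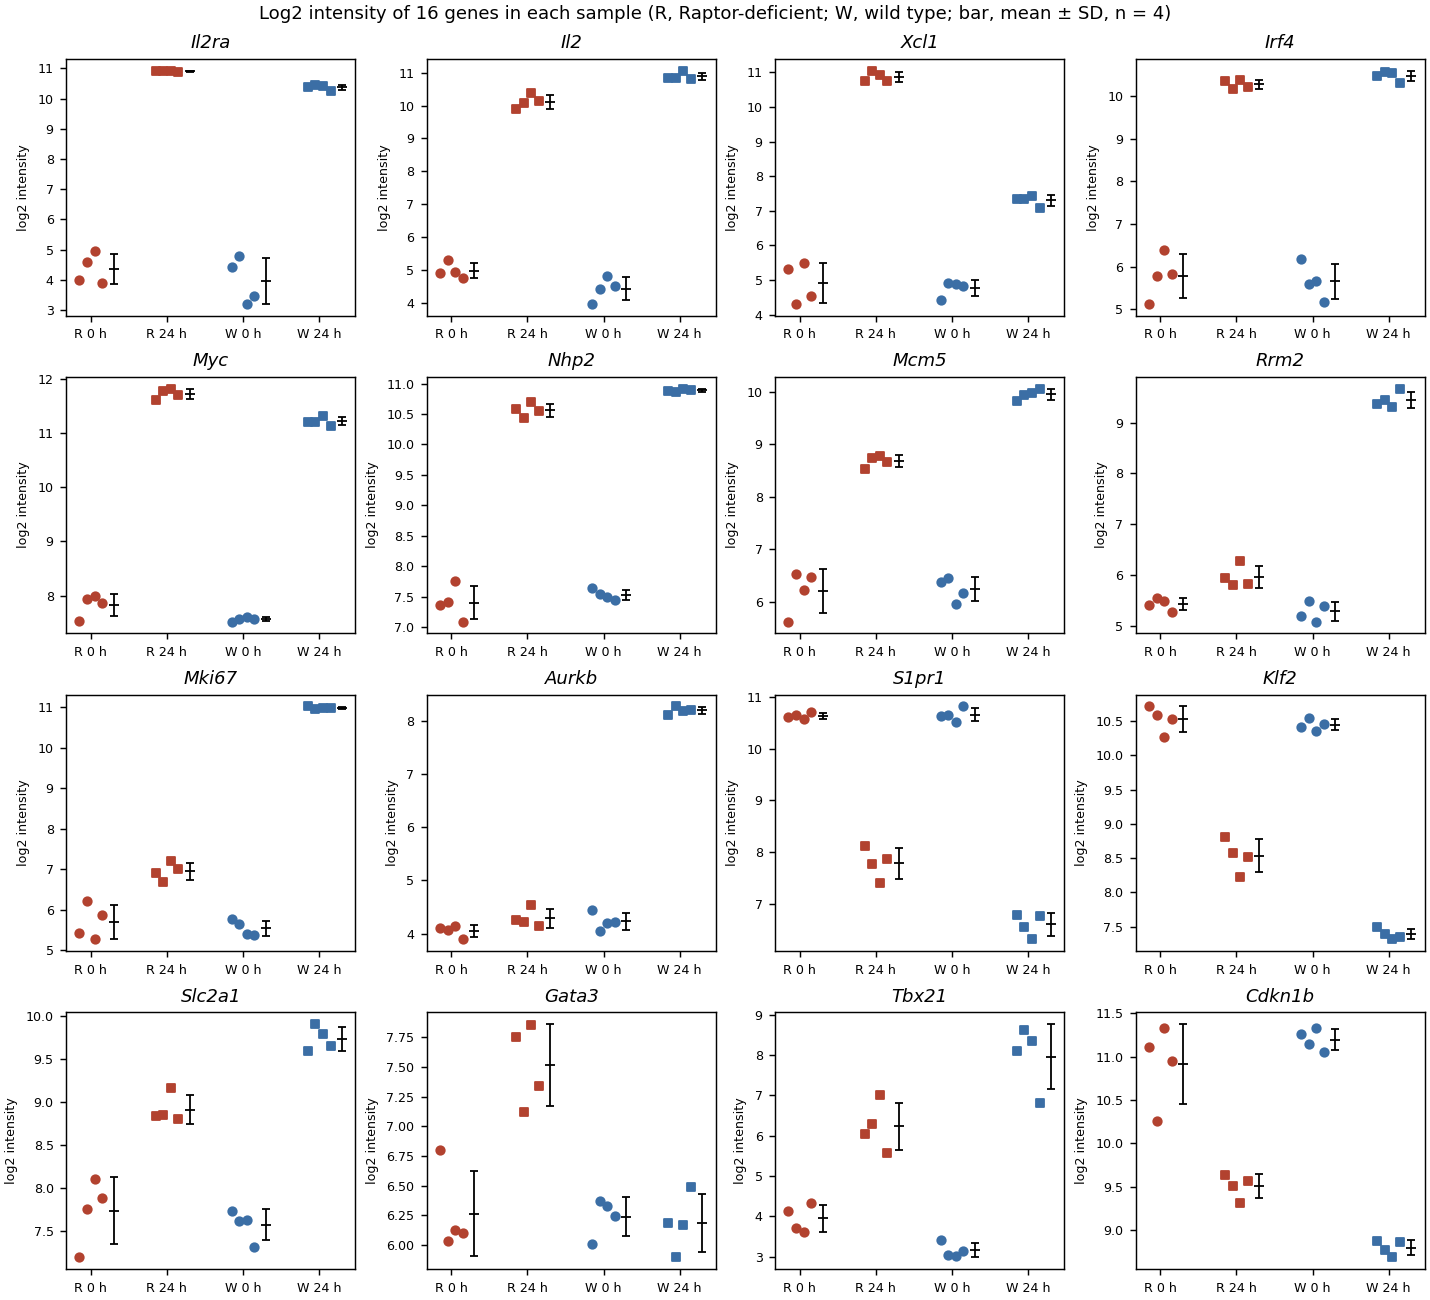
Log2 intensity of 16 genes in every Raptor-deficient (R, red) and wild-type (W, blue) sample, unstimulated (circles) or after 24 h (squares), with the mean and SD of 4 samples beside each group. In Raptor-deficient cells Il2ra, Il2, Xcl1, Irf4 and Myc lie far above their unstimulated values at 24 h. Aurkb lies at 3.89 to 4.15 in unstimulated and 4.14 to 4.55 in 24 h samples of these cells.

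Transcription factor genes of activation followed the same direction. Of 27 measured, 20 rose and 3 fell, and the median difference was 1.32. Myc, the regulator of growth and metabolism in activated T cells, read 7.54, 7.94, 7.99 and 7.87 in unstimulated and 11.60, 11.78, 11.81 and 11.69 in 24 h samples (14.8-fold, SE 0.12 on the log2 scale, adjusted p = 2.02e-09). The lowest 24 h value, 11.60, was far above the highest unstimulated one, 7.99. Irf4, a factor that scales with antigen receptor signal strength, rose 22.5-fold, the immediate early genes Nr4a1, Egr2 and Egr1 rose 14.4-fold, 11.5-fold and 11.3-fold, and Batf rose 1.77-fold. Fosl2, Jun and Nfkbia were the members that fell, by 0.59, 0.53 and 0.44 on the log2 scale. Hif1a, the oxygen-regulated factor that drives glycolytic genes, overlapped between groups, with 8.21, 8.80, 8.28 and 8.58 before and 9.06, 8.73, 9.09 and 8.90 after. Its 1.39-fold rise was called (adjusted p = 0.0218) but lost the call under 6 alternatives, with an adjusted p of up to 0.106, among them without unstimulated replicate 3 and without 24 h replicate 1 or 3.

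Genes for proteins that restrain signalling moved both ways, and the Dusp and Rgs families had members on either side. Of 23 feedback inhibitors, 11 rose and 6 fell (median difference 0.48). Those that rose most encode inhibitors of the ERK pathway and of cytokine and G protein signalling: Dusp6, a phosphatase for ERK, rose 24.0-fold, Spry1 16.2-fold, Rgs16 15.6-fold and Cish, a target and inhibitor of STAT5, by 3.59 on the log2 scale. Spry1 read 4.68, 4.45, 5.06 and 4.32 before and 8.60, 8.59, 8.83 and 8.56 after, with a wide gap between the groups. The 6 that fell were Dgka, which removes diacylglycerol, Tnfaip3, an inhibitor of NF-kappa B, and Rgs2, Dusp10, Dusp1 and Pdcd4, by 1.47, 1.26, 1.12, 0.76, 0.69 and 0.64 on the log2 scale.

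Genes that mark the naive, quiescent state fell. Of 28 measured, 21 were lower and 1 higher, 14 of the lower ones by at least 2-fold, with a median difference of -1.07. S1pr1, the receptor with which lymphocytes leave lymph nodes, read 10.61, 10.65, 10.58 and 10.72 before and 8.12, 7.78, 7.39 and 7.86 after (7.23-fold lower, SE 0.14 on the log2 scale, adjusted p = 4.15e-08). The unstimulated values were tightly grouped and all above the 24 h values, which still lay well above background. Klf2, the factor that drives S1pr1, was 3.98-fold lower and its relative Klf3 5.13-fold lower. Txnip, which limits glucose uptake, read 11.58, 11.56, 11.71 and 11.68 before and 9.79, 9.94, 9.55 and 9.86 after, a fall of 3.59-fold that left it among bright genes. Tsc22d3, a glucocorticoid-induced gene of resting cells, was 6.34-fold lower, and Cdkn1b, which encodes the cell cycle inhibitor p27, 2.66-fold lower (10.26 to 11.33 before, 9.32 to 9.63 after). Foxo1, a factor that sustains the naive state, was not called (adjusted p = 0.96), nor was Bach2 (0.37), and Igfbp4 was the member that rose, by 2.68.

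Outside these lists, St8sia6, which encodes a sialyltransferase, fell most of all named genes, from 9.84, 9.15, 9.35 and 9.26 to 5.53, 5.80, 5.14 and 5.85 (14.1-fold lower, adjusted p = 3.54e-08). Rflnb, Mex3b, Gramd3 and Carns1 fell 10.8-fold, 9.37-fold, 8.41-fold and 7.41-fold. Slc28a2, a nucleoside importer, fell 7.15-fold and Rnf125, a ubiquitin ligase gene, 6.23-fold, both with closely grouped 24 h values. Cd55b, and its near copy Cd55, a complement inhibitor gene that is a member of the naive list, were 5.70-fold and 5.85-fold lower, and their signals may not be fully separable because the sequences are alike. Among rises outside the lists were Ybx3, an RNA-binding protein gene (34.4-fold), Bcat1, which encodes the cytosolic enzyme that starts the breakdown of branched-chain amino acids (30.7-fold), and Ifitm2 (27.6-fold).

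Ribosome assembly rose as a block. All 34 measured ribosome biogenesis genes were higher, 25 by at least 2-fold, with a median difference of 1.52. Nhp2, a protein of the particles that modify ribosomal RNA, read 7.36, 7.41, 7.75 and 7.09 before and 10.58, 10.44, 10.69 and 10.54 after (8.95-fold, adjusted p = 1.65e-08). Rrp1b rose 8.57-fold, Dkc1, the enzyme that converts uridine in ribosomal RNA, 5.02-fold, and Nop58 4.97-fold. The groups did not overlap for any of these 4 genes, which were taken for the smallest p of their list. Nolc1, a nucleolar chaperone gene, rose 4.87-fold, although unstimulated replicate 1 read 8.63 against 6.79 to 7.44 in the other 3.

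The ribosomal proteins themselves, whose messages are known targets of mTORC1 at the level of translation, gave another picture. Of 26 cytosolic ribosomal protein genes 5 were called higher (19.2%, against 18.9% of all genes) and 0 lower (against 14.1%). The share called higher was thus near that of all genes, and the median difference was 0.06. The number called ranged from 1 to 9 over the alternatives: it was 1 after cyclic loess, 2 after median centring and 9 with the mean of all probe sets, and leaving out single samples gave 2 to 7. Only Rpl14 differed by 2-fold or more, from 6.94, 6.58, 6.45 and 6.46 to 8.36, 8.47, 8.69 and 8.37. It was read by 1 probe set, far dimmer than the list means of 12.26 to 12.49 per array. Those means lie toward the top of the measured range, whose highest value was 13.79. Whether differences shrink at such levels was not tested. Rpl11 rose 1.29-fold, from a mean of 12.47 to 12.84, and was not called after cyclic loess (adjusted p = 0.285). Rpl3 and Rps2 moved by 0.29 and 0.34 and lost their calls under 10 and 8 alternatives, with adjusted p of up to 0.618 and 0.454.

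Of 28 genes for translation factors and tRNA synthetases 24 rose and 2 fell (median 1.12). Eif1a, an initiation factor gene, went from 6.53, 6.72, 6.69 and 6.93 to 8.86, 8.60, 8.96 and 8.78 (4.24-fold), and Eef1e1, a scaffold of the synthetase complex, rose 4.22-fold and Rars, the arginyl synthetase gene, 3.69-fold. The groups lay apart for all 3. Both falls were in genes for inhibitors of translation, Pdcd4 and Eif4ebp2, whereas Eif4ebp1, the related mTORC1 substrate, rose by 1.12. Protein folding and turnover moved in the same way, with 29 of 30 chaperonin and proteasome genes higher and 0 lower (median 0.98). Psma5, a subunit of the proteasome core, rose from 8.83, 8.56, 8.73 and 8.78 to 10.39, 10.33, 10.53 and 10.50 (3.27-fold), and the chaperonin subunit Cct6a rose 3.01-fold. The 1 member not called was Psma1 (adjusted p = 0.059).

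Of 25 genes for one-carbon, serine and nucleotide synthesis 23 rose and 0 fell, 20 by at least 2-fold, with a median difference of 1.47. Cad, whose product starts pyrimidine synthesis and is a known substrate downstream of mTORC1, read 6.03, 5.92, 5.67 and 5.88 before and 8.78, 9.04, 8.97 and 8.79 after (8.11-fold, adjusted p = 4.97e-09). Psat1, a serine synthesis enzyme, rose 8.37-fold, Mthfd1, which interconverts folates, 7.83-fold and Shmt2, the mitochondrial enzyme that turns serine into one-carbon units, 4.47-fold. All 4 samples at 24 h exceeded all 4 unstimulated ones for each of these genes. Rrm2, the subunit of ribonucleotide reductase made in S phase, was the smallest called rise of the list, from 5.41, 5.55, 5.49 and 5.28 to 5.94, 5.81, 6.27 and 5.82 (1.44-fold, adjusted p = 0.00462), close to background in both groups. Impdh1 and Shmt1 were not called (adjusted p of 0.99 or more).

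Of 24 genes of amino acid transport and the amino acid response 10 rose and 2 fell, with a median difference of 0.21. Slc7a1, a carrier of arginine, rose from 6.89, 7.28, 7.73 and 7.68 to 9.91, 10.07, 10.01 and 9.92 (5.98-fold). Slc38a1 and Slc1a5, which carry glutamine and other neutral amino acids, rose 4.66-fold and 3.02-fold. Slc7a5, the leucine carrier whose activity feeds mTORC1, rose 3.98-fold (6.05 to 7.01 before, 8.29 to 8.65 after), and its partner chain Slc3a2 rose by 0.58 on the log2 scale. Atf4, the factor of the amino acid response, was not called (adjusted p = 0.38), nor were its targets Trib3, Chac1 and Sesn2 (0.16, 0.15 and 0.25), while Asns rose by 0.90.

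Of 19 sterol synthesis and uptake genes 16 rose and 1 fell (median 0.88). Idi1, an isomerase early in the pathway, read 6.08, 6.96, 6.16 and 6.70 before and 10.50, 10.14, 10.43 and 10.27 after (14.5-fold, adjusted p = 3.64e-08). Sqle, the enzyme that makes squalene epoxide, rose 6.04-fold from a level near background, Cyp51 4.09-fold and Fdft1 2.35-fold, and Srebf2, which encodes the transcription factor SREBP2 that drives the pathway, rose 1.92-fold (8.24 to 8.93 before, 9.53 to 9.70 after). The groups did not overlap for any of them. Hmgcs1, the synthase that supplies the pathway, rose 1.27-fold (adjusted p = 0.0151) between means of 4.09 and 4.43, which are near background. Of 7 sterol efflux genes 0 rose and 4 fell, led by the exporter Abcg1, which went from 9.38, 9.23, 9.18 and 9.15 to 6.83, 7.21, 7.51 and 6.90 (4.36-fold lower), and Mylip, a ligase gene that removes the LDL receptor (2.99-fold lower).

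In fatty acid synthesis 7 of 16 genes rose and 2 fell (median 0.42). Acsl5 and Acaca, the latter the carboxylase that commits acetyl groups to lipid, rose 3.67-fold and 3.28-fold, and Fasn, the synthase, rose 2.25-fold from 7.24, 7.63, 7.11 and 7.49 to 8.34, 8.59, 8.67 and 8.55. Those 24 h values all lay above the unstimulated ones. Scd1, the desaturase gene, stayed near background, with 5.39 in 24 h replicate 1 and 3.85 to 4.43 in the other 3, and the difference was 1.04, or 0.78 without replicate 1 of both groups.

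In glucose uptake and glycolysis 14 of 18 genes rose and 0 fell (median 0.96). Hk2, the hexokinase induced in activated T cells, read 6.26, 6.32, 5.59 and 6.12 before and 8.61, 8.40, 8.81 and 8.58 after (5.77-fold). Tpi1 rose 5.30-fold, the lactate carrier Slc16a1 4.87-fold, Pgk1 3.22-fold and Ldha, the lactate-forming enzyme, 2.23-fold. Slc2a1, the glucose transporter GLUT1, rose 2.26-fold, from 7.19, 7.76, 8.10 and 7.88 to 8.83, 8.84, 9.16 and 8.79. No sample crossed between groups in these 6 genes. Hypoxia targets outside glycolysis did not follow, with 5 of 16 higher and 5 lower and a median of -0.03; the number higher was 3 after cyclic loess or with the mean of probe sets. Pdk1, a pyruvate dehydrogenase kinase gene, fell from 8.77, 9.06, 9.04 and 9.21 to 7.98, 7.96, 7.98 and 7.93 (2.08-fold lower), and Bnip3l, a mitophagy receptor gene, was 1.71-fold lower.

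Mitochondrial genes rose nearly throughout. Of 55 oxidative phosphorylation genes 50 rose and 0 fell, with a median of 0.97, and of 32 mitochondrial translation genes 31 rose and 0 fell, with a median of 1.14. Ndufc2, a subunit of complex I, rose from 8.18, 7.53, 7.70 and 7.65 to 9.88, 9.77, 9.95 and 9.88, and Atp5g1, a subunit of ATP synthase, from 8.51, 7.90, 8.21 and 7.98 to 10.09, 10.18, 10.45 and 10.17 (4.31-fold and 4.19-fold). Mrpl12 and Mrpl17, proteins of the mitochondrial ribosome, rose 4.41-fold and 4.63-fold. In each of these 4 genes the lowest 24 h sample exceeded the highest unstimulated one. Uqcrq rose 4.31-fold by its brighter probe set, but its probe sets were called in opposite directions. The tricarboxylic acid cycle moved less, with 16 of 23 genes higher and 3 lower (median 0.45), or 10 higher after cyclic loess. Suclg1 and Idh3a rose 2.35-fold and 2.44-fold, while Idh1, Sdha and Idh2 fell by 0.89, 0.43 and 0.42 on the log2 scale.

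**Figure D2:**
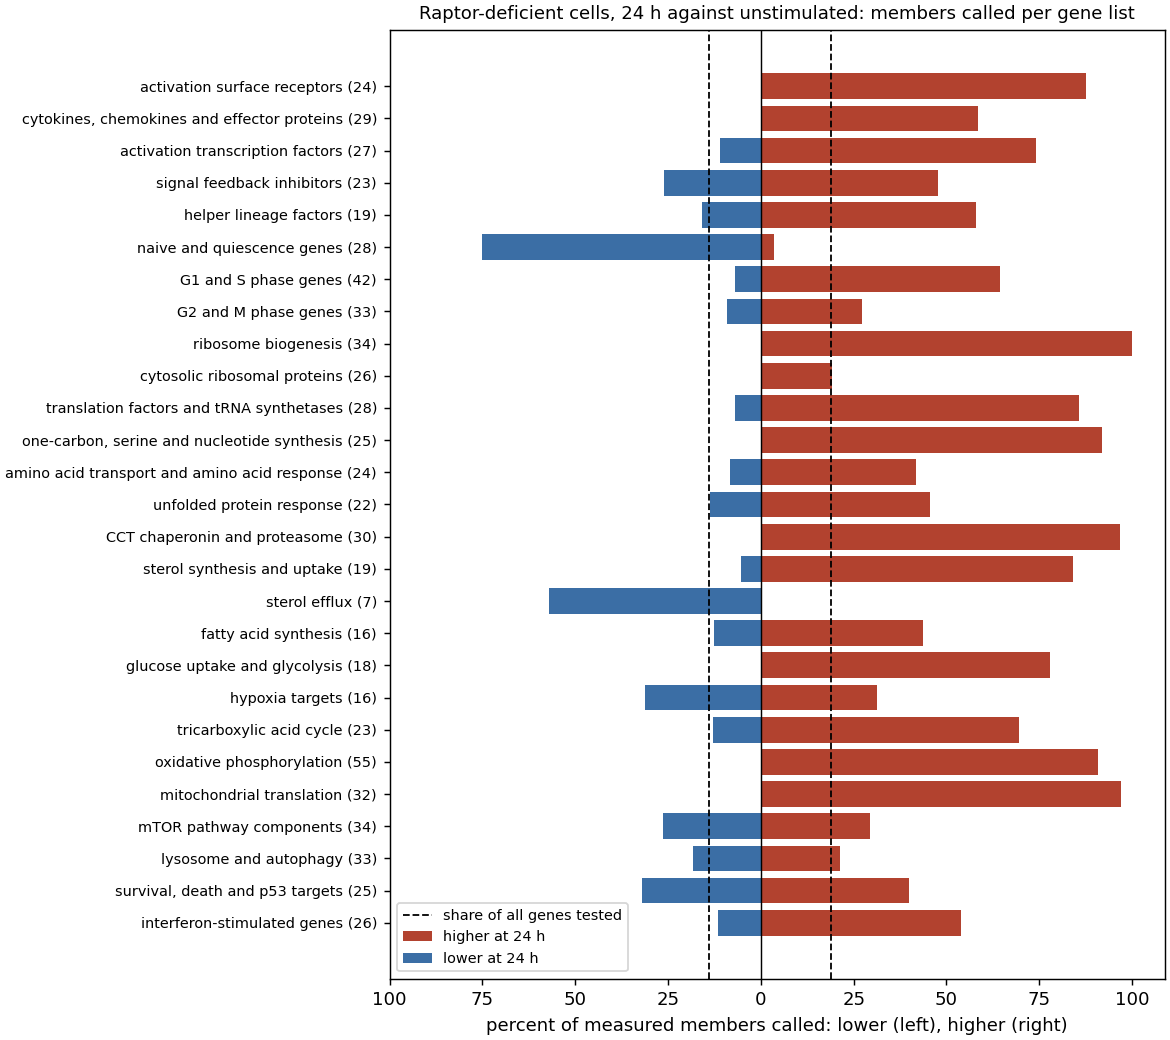
Percent of the measured members of each gene list called higher (red, right) or lower (blue, left) at 24 h in Raptor-deficient cells, with the number measured in brackets and dashed lines at the shares of all genes tested, 18.9% and 14.1%. Ribosome biogenesis (34 of 34), chaperonin and proteasome (29 of 30), mitochondrial translation (31 of 32), one-carbon, serine and nucleotide synthesis (23 of 25) and oxidative phosphorylation (50 of 55) have the longest bars to the right, and naive and quiescence genes (21 of 28) the longest to the left.

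Cell cycle genes split by phase. Of 42 genes of G1 and S phase 27 rose and 3 fell (median 0.75). The regulators that move a cell out of quiescence were well up: Cdk6, a kinase of early G1, read 6.19, 5.86, 5.91 and 5.45 before and 8.70, 8.62, 9.08 and 8.76 after (7.66-fold), Cdk4 rose 4.83-fold and their partner cyclin Ccnd2 3.07-fold. The 24 h samples lay above all unstimulated ones for the 3 genes. Ccnd3, another D-type cyclin, fell from 8.27, 8.44, 8.37 and 8.61 to 7.83, 7.81, 8.00 and 7.92 (1.44-fold lower). The replicative helicase subunit Mcm5 rose from 5.63, 6.53, 6.22 and 6.48 to 8.54, 8.74, 8.78 and 8.66 (5.53-fold, adjusted p = 6.59e-07), Mcm3 rose 4.21-fold, Mcm6 by 1.54 on the log2 scale, and Uhrf1, which copies DNA methylation at replication forks, 4.23-fold. Ccne1, the cyclin that fires S phase, overlapped between groups (5.75, 6.41, 5.97 and 5.80 before, 6.35, 6.29, 6.41 and 6.40 after) and was not called (adjusted p = 0.0531). E2f1, Ccne2, Cdk2, Cdt1 and Pcna were also not called, with adjusted p of 0.069, 0.79, 0.55, 0.13 and 0.12.

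Of 33 measured genes of G2 and M phase, 9 rose (27.3%, against 18.9% of all genes) and 3 fell (9.1%, against 14.1%). Of the rises 3 reached 2-fold, the median difference was 0.16, and 12 of the 33 had both means near background. The count of rises was 5 without 24 h replicate 3 and 5 after median centring. Mki67, the marker of cycling cells, read 5.43, 6.20, 5.26 and 5.86 before and 6.91, 6.67, 7.19 and 6.99 after (2.38-fold, adjusted p = 0.000279), and Cdk1, the mitotic kinase, 4.81, 5.32, 5.19 and 5.06 before and 5.92, 6.04, 6.37 and 6.33 after (2.10-fold). The groups did not overlap, but the 24 h levels were low. Aurkb, a kinase of chromosome segregation, read 4.11, 4.06, 4.15 and 3.89 before and 4.26, 4.22, 4.55 and 4.14 after, near background in all 8 samples and not called (adjusted p = 0.14). Cenpa, the histone variant of centromeres, fell from 7.0 to 7.86 to 6.16 to 6.53 (2.18-fold lower), and Ccnb2, a mitotic cyclin, fell by 0.84 on the log2 scale. Wild-type cells also showed a fall of Cenpa (difference -0.85), although 32 of the 33 genes of this list rose there. The genotype difference of Cenpa was not called (-0.27, adjusted p = 0.43). Cenpa was read by the brighter of its 2 probe sets, and whether that one follows cycling was not tested.

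A few promoters of these lists are shown because E2F elements are known to time many genes of G1 and S phase, and cell cycle homology regions (CHR) many genes of G2 and M phase. Each sequence is the 250 bases before the first listed start site, from RefSeq on assembly GRCm38.p6, with matches to the motif named for that gene, on either strand, in capitals. The E2F motif was TTTCCCGC, TTTGGCGC or TTTCGCGC. Mcm5 lies on the plus strand at chr8:75109259-75109508, with overlapping matches that begin 153 and 149 bases before the start, and Mcm6 on the minus strand at chr1:128359706-128359955, with matches at 110, 106 and 47 bases.
Mcm5: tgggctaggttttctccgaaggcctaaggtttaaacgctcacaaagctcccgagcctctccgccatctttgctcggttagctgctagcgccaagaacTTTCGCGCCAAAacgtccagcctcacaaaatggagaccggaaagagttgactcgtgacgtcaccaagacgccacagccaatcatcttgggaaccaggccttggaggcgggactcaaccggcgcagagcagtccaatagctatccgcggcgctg
Mcm6: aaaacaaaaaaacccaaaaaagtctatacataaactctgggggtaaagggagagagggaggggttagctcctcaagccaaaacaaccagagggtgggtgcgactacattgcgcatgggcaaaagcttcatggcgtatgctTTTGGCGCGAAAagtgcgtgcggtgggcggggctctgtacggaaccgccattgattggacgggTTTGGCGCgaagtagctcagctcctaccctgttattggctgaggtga
The CHR motif was TTTGAA. Cdk1 lies on the minus strand at chr10:69352913-69353162, with matches that begin 71 and 15 bases before the start, and Ccnb2 on the minus strand at chr9:70421555-70421804, with a match at 167 bases. The Cdk1 promoter also holds an E2F match, not in capitals, that begins 131 bases before the start, whereas no E2F match was found in that of Ccnb2 and no CHR match in those of Mcm5 and Mcm6.
Cdk1: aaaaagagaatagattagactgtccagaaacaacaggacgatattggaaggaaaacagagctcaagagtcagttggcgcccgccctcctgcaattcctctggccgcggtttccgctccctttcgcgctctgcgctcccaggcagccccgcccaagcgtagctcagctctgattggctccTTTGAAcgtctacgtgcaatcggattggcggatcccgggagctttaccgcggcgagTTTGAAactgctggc
Ccnb2: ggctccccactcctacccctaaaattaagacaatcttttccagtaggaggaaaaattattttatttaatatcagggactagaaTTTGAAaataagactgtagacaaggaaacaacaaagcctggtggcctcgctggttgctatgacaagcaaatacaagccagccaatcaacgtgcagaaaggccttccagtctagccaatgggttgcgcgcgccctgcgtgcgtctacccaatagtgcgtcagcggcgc

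Promoters were found for 13605 of the tested genes, among them 33 of the 42 G1 and S phase genes and 28 of the 33 G2 and M phase genes. An E2F match stood in 30.3% of the G1 and S phase promoters, in 3.6% of the G2 and M phase promoters and in 2.4% of all promoters. CHR matches stood in 39.3% of the G2 and M phase promoters, 18.2% of the G1 and S phase promoters and 11.8% of all. Among genes called higher at 24 h the shares were 4.0% for E2F and 12.4% for CHR, and among genes called lower 2.2% and 9.3%. The G1 and S phase genes with an E2F match had a median difference of 0.85 (7 of 10 higher, 1 lower) and those without one 0.66 (14 of 23 higher, 1 lower). G2 and M phase genes with a CHR match had a median of 0.40 (5 of 11 higher, 1 lower) and those without one 0.11 (4 of 17 higher, 2 lower). These matches describe letters in a window and are not measured binding sites, and the differences between these small sets were not tested. The CCAAT box stood in 75.0% of G2 and M phase, 93.3% of sterol synthesis and 35.9% of all promoters, and the E-box CACGTG, the element MYC can bind, in 10% of genes called higher, 8.8% of those called lower and 7.6% of all.

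Of the 15 sterol synthesis genes with a promoter, 1 held the sterol element TCACNCCAC within 250 bases, against 1.1% of all promoters. It is that of Hmgcs1, on the plus strand at chr13:119690101-119690350, with the match in capitals 137 bases before the start.
Hmgcs1: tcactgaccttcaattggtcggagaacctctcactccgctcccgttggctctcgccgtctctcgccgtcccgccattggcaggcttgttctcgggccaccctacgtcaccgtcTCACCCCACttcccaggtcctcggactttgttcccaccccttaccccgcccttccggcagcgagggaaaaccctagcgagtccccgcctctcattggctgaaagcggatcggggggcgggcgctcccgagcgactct

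The size of the response was set against that of wild-type cells by an interaction test over all 24 arrays. For each gene this test uses 1 spread for all 6 groups. Unstimulated Raptor-deficient samples varied more (residual SD 0.17 to 0.28) than those at 24 h (0.12 to 0.15), so the shared spread may understate theirs. The difference in response between genotypes was called for 2270 genes, lower in Raptor-deficient cells for 1370 (8.01%) and higher for 900 (5.26%). A difference of at least 1 on the log2 scale was found for 379 of the lower and 67 of the higher genes. In the cell cycle lists, 31 of 33 G2 and M phase genes and 37 of 42 G1 and S phase genes had a lower response without Raptor, and 0 of either list a higher one. The list medians were 0.16 against 2.43 in wild type for G2 and M phase and 0.75 against 2.45 for G1 and S phase. Mki67 rose by 1.25 without Raptor and 5.44 with it (difference -4.19, SE 0.27, adjusted p = 9.9e-12), Birc5, an inhibitor of apoptosis made in mitosis, by 0.51 and 4.54 (difference -4.03), and Rrm2 by 0.53 and 4.16 (difference -3.63). Aurkb differed by 0.24 and 3.97 (difference -3.73). Esco2, which joins sister chromatids in S phase, lay between 2.07 and 2.65 in all 8 Raptor-deficient samples and differed by 4.09 in wild type.

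The genotype difference was not called for Cdk6 (-0.04, adjusted p = 0.94), Ccnd2 (0.21, 0.46), Cdk4 (-0.45, 0.096), Myc (0.24, 0.32) or Il2ra (0.14, 0.85). Differences were called for Ccne1 (-1.88), Cdk1 (-2.67), Uhrf1 (-2.01), Mcm5 (-1.24) and Ccnd3 (-0.89). Among lists of growth and metabolism, called differences were lower in 16 of 25 one-carbon and nucleotide genes and 12 of 18 glycolysis genes, with 0 and 1 higher. They were lower in 14 of 32 mitochondrial translation genes and 12 of 28 translation genes, with 0 and 1 higher. Over all genes 8.01% were lower and 5.26% higher. Shares were smaller in other lists: 10 of 55 oxidative phosphorylation genes were lower and 1 higher, and 3 of 24 amino acid transport and response genes lower and 4 higher. Among ribosome biogenesis genes 10 of 34 were lower and 0 higher, or 6 with the mean of probe sets, and among the 26 cytosolic ribosomal protein genes 0 were called either way by limma (1 at an unadjusted p under 0.05). Tpi1 had the largest such gap of the named glycolysis genes, with 2.41 against 4.39 in wild type (difference -1.99, adjusted p = 2.9e-07). Naive genes fell less without Raptor: 15 of 28 had a response called higher, that is less negative, and 0 lower, with Txnip at -1.85 against -3.25, S1pr1 at -2.85 against -4.06 and Klf2 at -1.99 against -3.06.

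**Figure D3:**
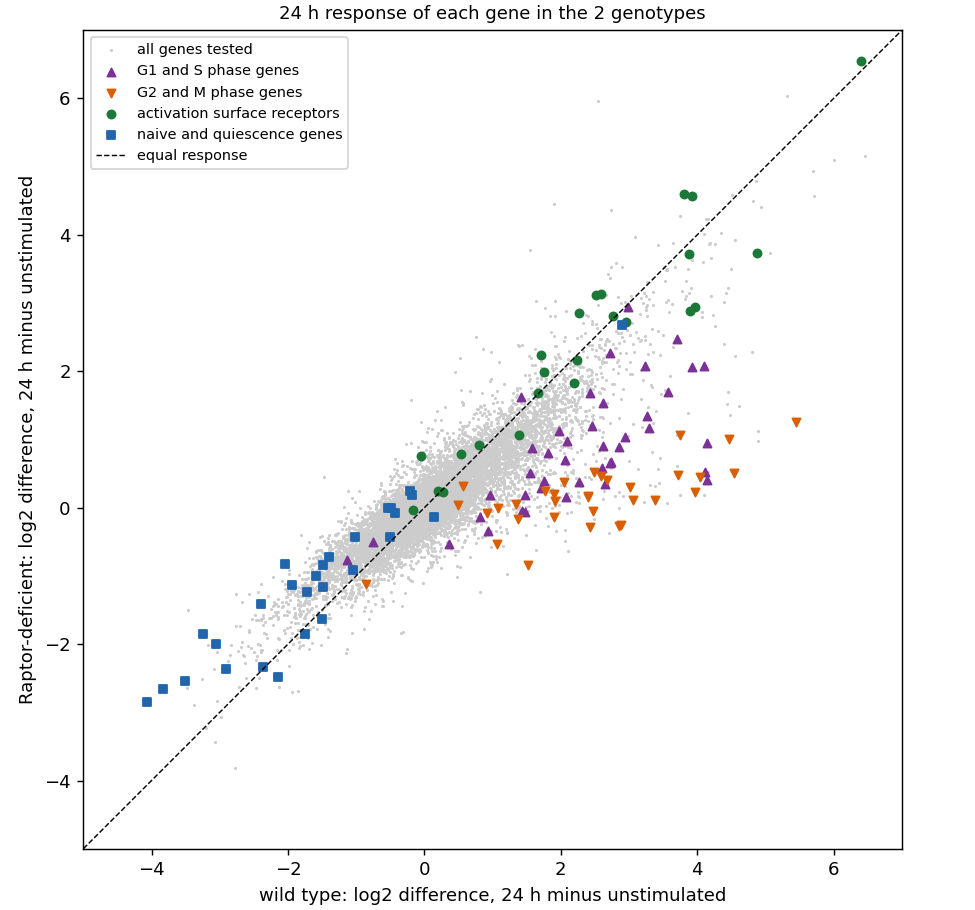
Log2 difference, 24 h minus unstimulated, of each gene in wild-type (x axis) and Raptor-deficient cells (y axis), with 4 gene lists marked and a dashed line where both responses are equal. G2 and M phase genes have a median of 2.43 in wild type and 0.16 without Raptor, where 9 of 33 were called higher and 3 lower. Of these genes Mki67 lies at 5.44 in wild type and 1.25 without Raptor. Activation surface receptors (median 2.48 without Raptor, 2.25 in wild type) lie on both sides of the line.

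Some genes responded more without Raptor. Xcl1 rose by 5.96 against 2.54 in wild type (difference 3.42, adjusted p = 1.4e-10). Akr1c18, a steroid-reducing enzyme gene, read 4.11, 3.89, 4.45 and 3.83 before and 8.56, 8.16, 8.85 and 8.51 after, a difference of 4.45 against 1.90. The chemokine receptor gene Ccr8 rose by 3.78 against 1.55, the chemokine gene Ccl22 by 2.50 against 0.76, Gpr65, which encodes an acid-sensing receptor, by 2.19 against 0.53, and Lad1 by 4.36 against 2.74. In each of these genes the Raptor-deficient samples at 24 h all lay above the unstimulated ones. Klrd1, an NK cell receptor chain, fell in both genotypes, 2.83-fold without Raptor and further in wild type (difference 1.97, adjusted p = 9.4e-06), and its 24 h values lay near background in the Raptor-deficient samples (3.60 to 4.43). Unstimulated wild-type cells held more of it, at 7.15 ± 0.24 against 5.5 ± 0.12 (SD, n = 4 each), and reached 3.68 ± 0.20 at 24 h, and the part of the unequal start in the genotype difference was not tested. Among activation surface receptors, 7 of 24 had a higher and 3 a lower response without Raptor, and the 7 became 4 without Raptor-deficient 24 h replicate 4 or without wild-type 24 h replicate 4. Tnfrsf9 (difference 0.79) and Il2rb (0.66) were higher, and Pdcd1 (-1.01), Tfrc (-1.02) and Cd200 (-1.13) lower. Il2 rose by 5.15 against 6.46 (difference -1.31, adjusted p = 0.00034).

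**Figure D4:**
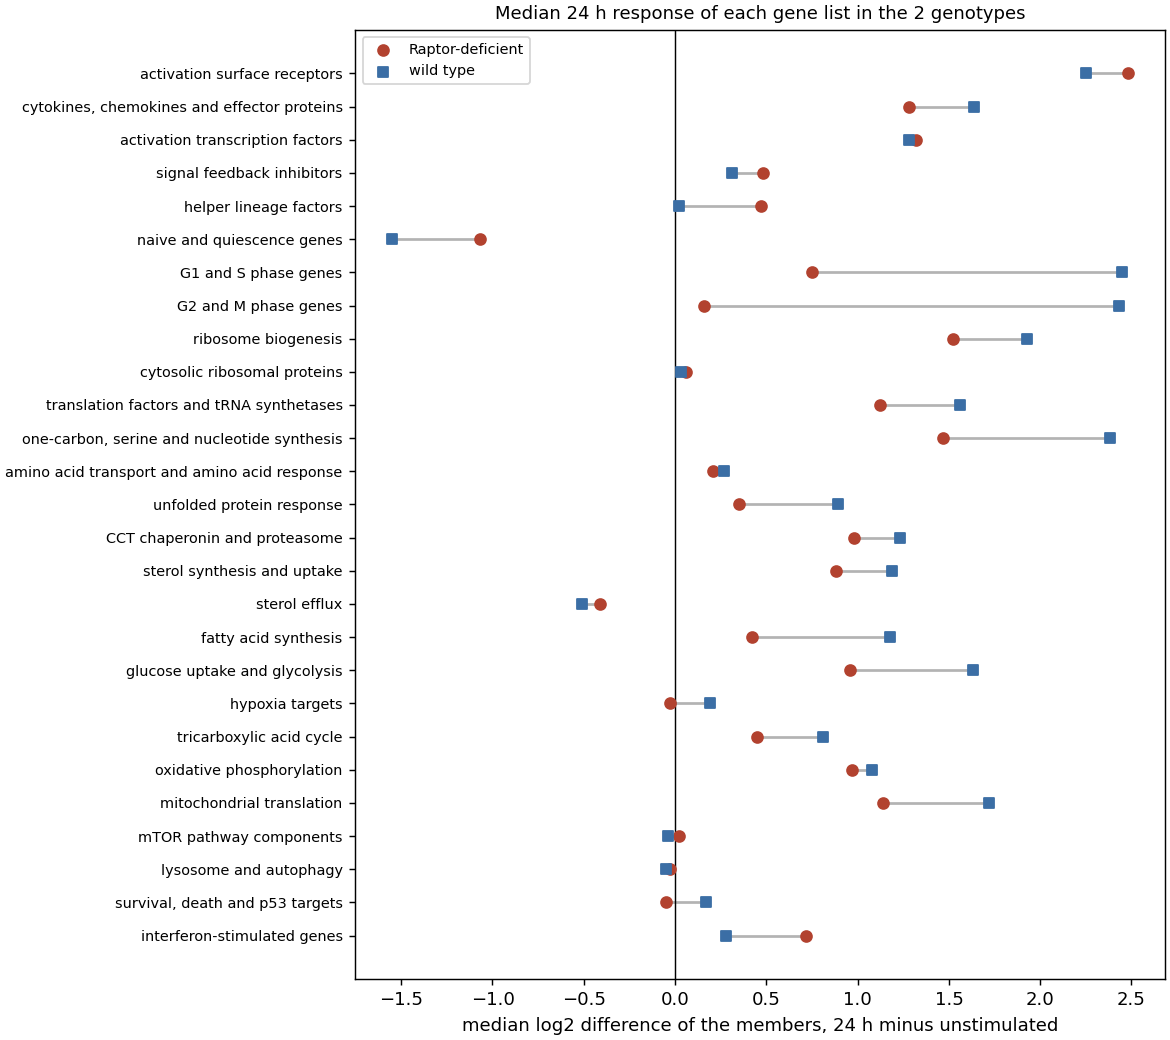
Median log2 difference, 24 h minus unstimulated, of the measured members of each gene list in Raptor-deficient (red circles) and wild-type cells (blue squares), joined by a line. The longest lines are those of the G2 and M phase list (0.16 and 2.43) and the G1 and S phase list (0.75 and 2.45), whereas the cytosolic ribosomal proteins (0.06 and 0.03) coincide.

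Lineage factors of helper cells moved in both directions, with 11 of 19 higher and 3 lower (median 0.47). Tbx21, which encodes T-bet, the factor of type 1 helper cells, read 4.14, 3.71, 3.62 and 4.32 before and 6.05, 6.29, 7.0 and 5.58 after (4.86-fold, adjusted p = 2.86e-05), a smaller response than in wild type (2.28 against 4.80, difference -2.52, adjusted p = 0.00077). Gata3, the factor of type 2 helper cells, read 6.80, 6.03, 6.13 and 6.10 before and 7.76, 7.12, 7.85 and 7.34 after (2.38-fold), whereas its difference in wild type was -0.05 (difference between genotypes 1.31, adjusted p = 0.00057). Neither gene overlapped between the Raptor-deficient groups. Id3 rose 4.25-fold, and Foxp3, the factor of regulatory T cells, rose from 7.25, 7.23, 7.05 and 7.06 to 8.40, 7.99, 8.31 and 8.52 (2.23-fold). Stat4 and Rora fell 2.17-fold and 2.27-fold. Il4ra, the receptor for interleukin 4, was not called (adjusted p = 0.412). The 7 regulatory T cell markers measured include the activation genes Il2ra, Ctla4 and Tnfrsf18. Of them, 6 rose, and their mean went from 5.65 to 5.82 to 7.72 to 7.86. The part of regulatory T cells in this rise was not tested.

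Components of the mTOR pathway moved in both directions, with 10 of 34 higher (29.4%), 9 lower (26.5%) and a median of 0.02. Mtor, the kinase, read 8.12, 8.24, 8.05 and 8.24 before and 8.04, 8.23, 8.18 and 8.15 after (adjusted p = 0.954), and Mlst8, a subunit of both complexes, was not called either (0.939). Rictor, the scaffold of mTORC2, fell from 8.97, 9.35, 8.78 and 9.25 to 7.98, 7.89, 7.66 and 7.87 (2.36-fold lower, adjusted p = 2e-05), with no overlap. Sesn1, which encodes a leucine sensor that restrains mTORC1, was 4.23-fold lower (8.88, 9.73, 8.92 and 9.48 before, 7.30, 7.09, 6.94 and 7.37 after), and Ulk1, the kinase that starts autophagy, 2.51-fold lower. Fnip1, a partner of folliculin at the lysosome, rose 2.23-fold. Rictor fell in wild type too (-1.24 without Raptor, -1.69 in wild type), and its genotype difference was not called (0.45, adjusted p = 0.096). Nor was that of Sesn1, Ulk1 or Fnip1 (adjusted p = 0.98, 0.26 and 0.19). This does not show that these 4 genes responded alike in both genotypes. Lysosome and autophagy genes, many of them targets of factors that mTORC1 holds back, moved at shares near those of all genes. Of 33, 7 were higher (21.2%, against 18.9% of all genes) and 6 lower (18.2%, against 14.1%), with a median of -0.03. Ctsz, a cathepsin gene, and Atp6v1a, a subunit of the proton pump, rose 2.26-fold and 1.82-fold, while Atg9a, a scramblase of autophagosome formation, fell 2.58-fold to a level near background.

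In the unfolded protein response list 10 of 22 genes rose and 3 fell (median 0.35). Xbp1, its transcription factor, read 7.71, 7.38, 7.58 and 7.35 before and 9.15, 8.87, 9.04 and 9.02 after (2.86-fold), and Sdf2l1, a folding factor gene, rose 3.48-fold, less than in wild type (1.80 against 3.32, difference -1.52). Survival, death and p53 target genes split, with 10 of 25 higher and 8 lower (median -0.05). The survival genes Bcl2a1a and Bcl2l1 rose 16.3-fold and 3.23-fold. Bcl2a1a belongs to a family of near-identical copies, so its signal is that of the family, and its unstimulated replicate 1 read 7.92 against 6.32 to 6.83 in the other 3. Cdkn1a, which encodes the cell cycle inhibitor p21, rose from 5.29, 5.36, 5.58 and 5.56 to 7.54, 7.49, 7.24 and 7.05 (3.69-fold, adjusted p = 4.61e-07), more than in wild type (1.88 against 0.98, difference 0.91, adjusted p = 0.013).

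Of 26 interferon-stimulated genes 14 rose and 3 fell (median 0.72). Gbp2, a guanylate-binding protein gene, read 7.0, 6.34, 5.80 and 5.46 before and 10.74, 10.24, 10.28 and 10.25 after (18.7-fold), and Irf1, a factor induced by interferon gamma and by antigen receptor signals, rose 2.78-fold. Ifit1 rose 4.86-fold, from 5.11, 5.14, 5.48 and 5.59 to 7.84, 7.49, 7.91 and 7.21, more than in wild type (2.28 against 0.98, difference 1.30, adjusted p = 0.0037). The groups lay apart for all 3. Mx1, Mx2, Irf7 and Isg20, classic targets of type I interferon, were not called (adjusted p = 0.84, 0.28, 0.65 and 0.71).

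Within Raptor-deficient cells, 24 h was also compared with 8 h over 12 arrays. At 24 h 2193 genes were higher (12.8%) and 1014 lower (5.93%) than at 8 h, or 1638 and 638 without replicate 1 of both groups. Among late rises were those of oxidative phosphorylation, where 46 of 55 genes were higher than at 8 h and 0 lower, and of G1 and S phase genes, where 31 of 42 were higher and 1 lower, Mcm5 by 1.77 (mean 6.91 at 8 h, 8.68 at 24 h) and Uhrf1 by 1.82. Few ribosome biogenesis genes were called between 8 h and 24 h, with 1 of 34 higher and 2 lower, which does not show that the levels were equal. Nhp2 read 10.39 at 8 h and 10.56 at 24 h. Receptor genes differed in timing: Ctla4 read 5.73 at 8 h, near its unstimulated mean of 5.74, and 8.55 at 24 h, Il2rb 7.68 and 10.33, and Cd69 had come down from 10.90 to 9.68. Among activation transcription factors 14 of 27 were lower at 24 h than at 8 h and 2 higher, with Nr4a1 lower by a difference of -1.05 and Irf4 by -0.83, while Myc did not differ by the test (difference -0.24, adjusted p = 0.17). Mki67 rose by 1.61 from 8 h and Aurkb by 0.31. Il2 was lower at 24 h than at 8 h (means 10.12 and 10.73, difference -0.61, adjusted p = 0.011).

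The labelled cell type and other cell types were checked by their markers. Of 10 measured markers of alpha beta CD4 T cells, 4 rose and 1 fell, and their mean was 9.52 to 9.85 before and 10.15 to 10.25 after, among the highest of all lists. Zap70, a kinase of the antigen receptor, rose 4.79-fold and Cd6 3.86-fold, while Cd247, the zeta chain, fell 1.90-fold and Cd4 itself was not called (adjusted p = 0.33). The 17 myeloid markers averaged 4.37 to 4.55 before and 4.25 to 4.41 after, with 0 higher and 1 lower, and the 14 markers of CD8 T cells and NK cells averaged 4.68 to 4.77 and 4.70 to 4.82, with Nkg7 and Eomes higher and Klrd1 lower. B cell markers averaged 5.33 in unstimulated replicate 1 against 4.94 to 5.07 in the other 3, and 5.48 in 24 h replicate 1 against 5.03 to 5.14, with 1 of 14 called, Pax5, which read 4.95, 4.90, 4.51 and 4.83 before and 6.57, 5.69, 6.02 and 6.03 after. Among the Raptor-deficient samples liver genes were high in 24 h replicate 1 alone, where Alb read 9.11 against 6.22 to 6.36 in the other 3, and wild-type 24 h replicate 1, which enters the genotype comparison, read 9.02 against 6.38 to 6.42. Of 21 liver genes 0 were called by limma (2 at an unadjusted p under 0.05). Without replicate 1 of both groups the list counts were 29 higher and 4 lower of 42 in G1 and S phase, 7 and 4 of 33 in G2 and M phase, 33 and 0 of 34 in ribosome biogenesis and 1 and 21 of 28 in the naive list.

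**Figure D5:**
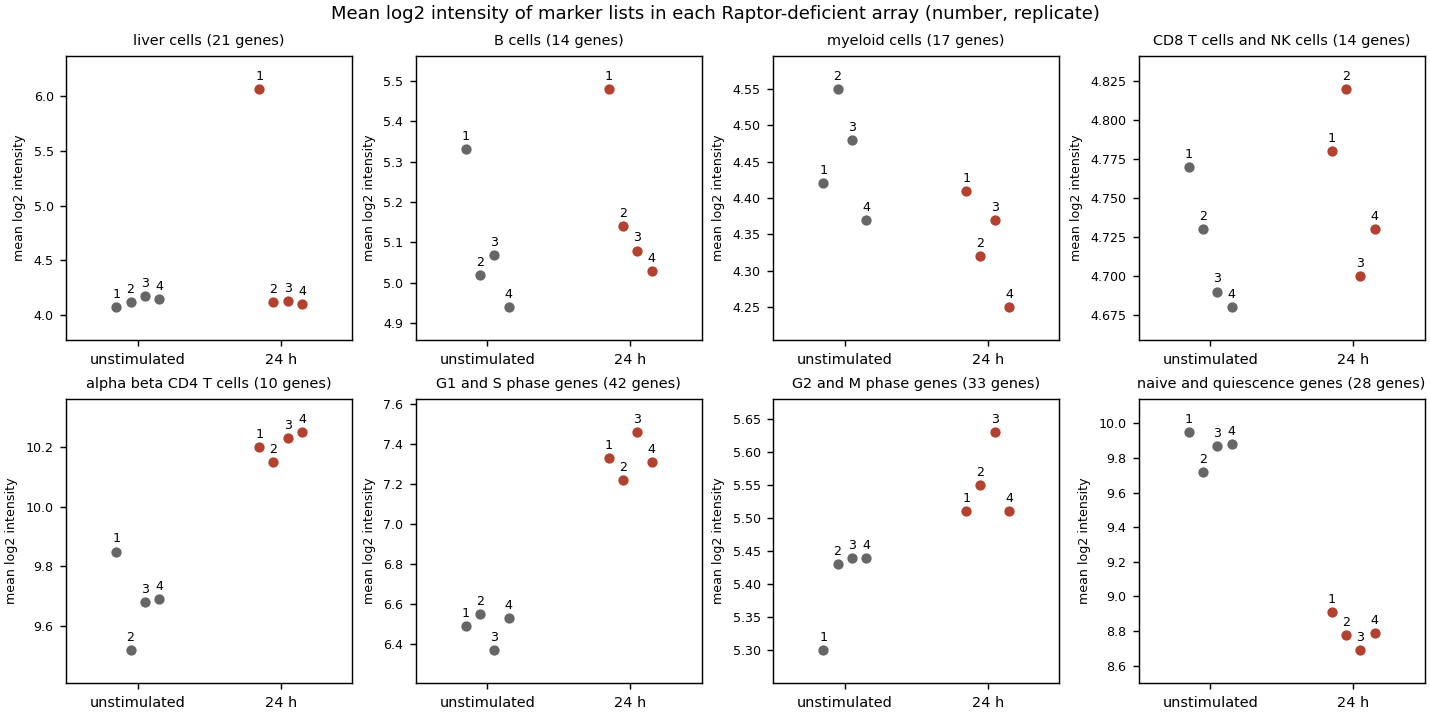
Mean log2 intensity of 8 gene lists in each Raptor-deficient array, unstimulated (grey) or at 24 h (red), with the replicate number above each point and a separate vertical axis per panel. Liver genes stand at 6.07 in 24 h replicate 1 and at 4.07 to 4.17 in the other 7 arrays, while the G1 and S phase and naive lists separate the groups in every replicate.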

How the data were processed

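The values analysed are the authors' deposited log2 intensities of 24 Affymetrix HT MG-430 PM arrays, 4 for each of 6 groups. Per the submitters' processing notes they were made with RMA in Partek 6.5. Per the labels' protocols, RNA was purified on columns with DNase digestion and amplified before hybridisation, and amplification can alter the range of differences. The number of arrays limits the precision. Of 45141 probe sets, 28898 were paired with 1 gene, 551 with several and 15692 with none in the annotation used. A gene with several probe sets was represented by the brightest on average, which left 17097 genes, with no filter on level. Genes were tested two-sided with limma 3.58.1 in R 4.3.3 (lmFit and eBayes), with Benjamini-Hochberg adjustment over all genes. The comparison of 24 h with unstimulated cells used the 8 Raptor-deficient arrays (6 residual degrees of freedom), the genotype difference in response used all 24 (18) and the comparison of 24 h with 8 h used 12 (9). Folds are 2 to the power of the log2 difference.

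Groups come from the sample titles. The comparison, the gene lists and the rules were chosen with earlier results of these data known. Named genes are the 15 largest rises and 15 largest falls among called genes whose higher mean was at or above 5.22 and whose groups did not overlap, passing over gene models without a proper symbol, from each list at most 4 called members, taken by smallest p, a fixed set of genes, and the 8 largest genotype differences each way. Other list members are named with their values already known. Statements that groups did not overlap follow in part from these choices and are not separate evidence for the named genes. Of 2916 called genes with several probe sets, 121 had probe sets called in opposite directions. Samples with the same replicate number deviated from their group means with correlations of -0.069 to 0.061, so numbers were not treated as pairs. In simulated data of the same design 200 of 17097 genes were altered. Calls were made for 44.8% of 67 genes at a true fold of 1.5. The shares were 80.6% of 67 at 2 and 98.5% of 66 at 4, and 6 calls were false. The measured comparison called 33.0% of genes, a far larger share, and the Benjamini-Hochberg adjustment depends on that share. The simulated rates therefore do not give the recovery in the measured data. Alternatives were other sets of arrays, the mean of probe sets, a filter on dim genes, cyclic loess, median centring, array weights, a trended robust prior, a replicate block and leaving out samples.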

Additional observations from a re-analysis of the deposited data

Results flagged for a closer look

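Several single samples lay far from the other 3 of their group, with a gap above Dixon's critical value for 4 samples. This was found in 13 of 226 groups of 4 values examined, and chance alone gives about 1 in 20. In unstimulated replicate 1 these were Tdrp (10.17), Tfrc (6.55), Gata3 (6.80) and the mean of the G2 and M phase list (5.30). In unstimulated replicate 3 they were Cd44 (5.77) and the means of the ribosome biogenesis list (7.53) and the tricarboxylic acid cycle list (7.63). In 24 h replicate 3 they were Tdrp (7.55), Cd55b (3.40) and Slc2a1 (9.16). In 24 h replicate 1 they were Alb (9.11) and the means of the liver list (6.07) and the gamma delta T cell list (4.42). Tfrc, Cd44, Slc2a1, Gata3, Tdrp and Cd55b were each also called when the sample that stood apart was left out.

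The 24 h response differed from that of wild-type cells by at least 1 on the log2 scale, with the interaction called by limma after Benjamini-Hochberg adjustment, in 22 of 76 genes examined. Over all genes tested the same held for 446 of 17097. The 76 were the largest rises and falls and the fixed set, so their share does not stand for that of all genes. Values are the Raptor-deficient minus the wild-type response. Responses were lower without Raptor for Mki67 (-4.19), Rrm2 (-3.63), Cdk1 (-2.67), Tbx21 (-2.52), Ccne1 (-1.88), Scd1 (-1.56), Il2 (-1.31), Mcm5 (-1.24), Ccl3 (-1.14), Nolc1 (-1.06), Hif1a (-1.04), St8sia6 (-1.04), Tfrc (-1.02) and Pdcd1 (-1.01). They were higher, or less negative, for Xcl1 (3.42), Akr1c18 (2.55), Lad1 (1.63), Txnip (1.41), Gata3 (1.31), S1pr1 (1.21), Tsc22d3 (1.16) and Klf2 (1.06). St8sia6 fell in both genotypes and fell further without Raptor, whereas S1pr1, Tsc22d3, Klf2 and Txnip fell in both and fell less without it.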

How the results depend on the processing

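Of 182 named genes called at 24 h, 172 were called under every alternative run, 10 were not under at least 1 (E2f8, Hif1a, Kdr, Klf1, Nr1h3, Pecam1, Rpl11, Rpl3, Rps2 and Slfn5), and Ccne1 was called under some. No named gene changed direction, and all 16 genes named for a genotype difference kept their call. Those 16 were the largest called differences, and many other named genes were taken for large differences or small p in these same arrays. That their calls were kept follows in part from this choice and is not separate evidence. Of 1228 alternative values of the 60 counts, 1169 lay within 1.5 times the main count. Requiring a fold of at least 2 left 1215 higher and 480 lower genes. Leaving out single samples gave 2800 to 3343 higher and 1984 to 2653 lower genes. Cytosolic ribosomal proteins called higher numbered 8 with all 24 arrays, 9 with the mean of probe sets, 1 with cyclic loess, 2 with median centring and 2 with the replicate block, 2 to 7 without single samples. Other counts of higher genes were G2 and M phase 5 (median centring) and 5 to 8 without single samples, hypoxia 3 (mean of probe sets) and 3 (cyclic loess), and tricarboxylic acid cycle 10 (cyclic loess). With the mean of probe sets, lower responses without Raptor numbered 6 for ribosome biogenesis, 5 for sterol synthesis and 1 for cytosolic ribosomal proteins, and higher ones 5 for helper lineage factors. With 16 arrays, lower responses numbered 4 for chaperonin and proteasome (9 in the main count) and 4 for oxidative phosphorylation (10), and higher ones 8 for interferon-stimulated genes (5). With cyclic loess 5 mTOR components had a higher response. Leaving out samples, higher responses ranged over 4 to 7 for surface receptors, 3 to 6 for feedback inhibitors, 1 to 5 for mTOR components, 2 to 6 for survival genes and 3 to 6 for interferon-stimulated genes. Lower ones ranged over 0 to 1 for cytosolic ribosomal proteins, 3 to 14 for chaperonin and proteasome, 5 to 14 for oxidative phosphorylation and 3 to 5 for lysosome genes. Genes lower at 24 h than at 8 h numbered 638 without replicate 1 of both groups. The causes were not tested. The replicate block, for numbers that do not pair the samples, gave 3132 higher and 2295 lower genes, and 885 higher and 1356 lower genotype differences. Not every sample correlated best with its own number. With a 100-base window E2F matches stood in 1.8% of promoters of genes called higher and 1.0% of all.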
